A study of Mus musculus with 2 samples.

Results

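Stem cells of the hormone-producing lobes and pituicytes of the posterior lobe were set against each other in single-cell RNA sequencing of whole mouse pituitary glands. Both were chosen by measured molecule counts. Stem cells were taken as barcodes with at least 5 summed molecules of Sox2, Cyp2f2, Aldh1a2, Aldh3a1 and Cpxm2 and fewer than 4 of Scn7a, Lrrtm3, Fndc3c1 and Car14. Pituicytes were taken as barcodes with at least 4 summed molecules of the second set and fewer than 5 of the first. Every barcode also had at least 250 detected genes, at most 20% of its molecules from mitochondrial genes, under 10% from Gh and from Prl and under 5% from Pomc. The rule found 315 stem cells and 54 pituicytes, 369 of the 13663 barcodes in all.

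The glands came from 7-week-old C57BL/6 male mice, housed one to a cage and untreated as far as the labels say. Glands were pooled by 3 into 2 libraries, so each library mixes 3 animals that cannot be separated, and each was digested with collagenase and trypsin for 4 h before capture by the 10x Genomics 3′ v2 chemistry. Library 1 gave 153 stem cells and 22 pituicytes of 6546 barcodes, and library 2 gave 162 and 32 of 7117. Stem cells made up 2.34% (95% exact binomial interval 1.99 to 2.73) and 2.28% (1.94 to 2.65) of the libraries, and pituicytes 0.336% (0.211 to 0.508) and 0.450% (0.308 to 0.634), intervals that cover counting error only. Shares depend on how each cell type survived digestion, which was not measured.

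Stem cells of the adult pituitary derive from Rathke's pouch, the oral epithelium that folds up to form the anterior and intermediate lobes, and they keep epithelial junctions and the factors SOX2 and SOX9. Pituicytes are the glia of the posterior lobe, which grows down from the floor of the diencephalon; they surround the terminals of the vasopressin and oxytocin neurons and share many genes with astrocytes. The 2 cell types therefore sit side by side in the gland, neither makes an anterior pituitary hormone, and they come from different germinal tissues.

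The genes of the rule are described here and were left out of every test. Among stem cells the first sum had a median of 22 and a highest value of 130 molecules, and the second sum came to 8 molecules in 6 barcodes. Among pituicytes the second sum had a median of 14 and a highest value of 39, and the first sum came to 35 molecules in 23 barcodes. Cyp2f2, a cytochrome P450, was seen in 308 of 315 stem cells and in 1 of 54 pituicytes. Scn7a, a sodium-sensing channel, was seen in 52 of 54 pituicytes and in 0 of 315 stem cells. Sox2 was the least separating of the first set, with molecules in 268 stem cells and in 18 pituicytes (26 molecules). At the edges, 6 stem cells had a first sum of exactly 5 and 8 barcodes fell just short at 4, while 3 pituicytes had a second sum of exactly 4 and 1 barcode fell just short at 3. A single barcode passed both sums and entered neither group.

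The labels were checked against markers that the rule did not use, chosen with earlier results of these data known. Of 10 further stem cell markers, 8 were called higher in stem cells and 0 in pituicytes, with Sox9 and Hesx1 uncalled. Of 10 further pituicyte markers, 9 could be tested and 7 were called higher in pituicytes, with Vcan and S100b uncalled and the glial filament gene Gfap too low to test. On the authors' own 2-dimensional map of all barcodes the groups lay in separate patches. Stem cells were centred at -46.4 and -17.8 and pituicytes at 53.3 and 7.29 map units. All but 2 stem cells and 3 pituicytes lay within 10 units of their group's centre. The map rests on the same measurements as the rule, so it is no independent check of the labels.

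**Figure D1:**
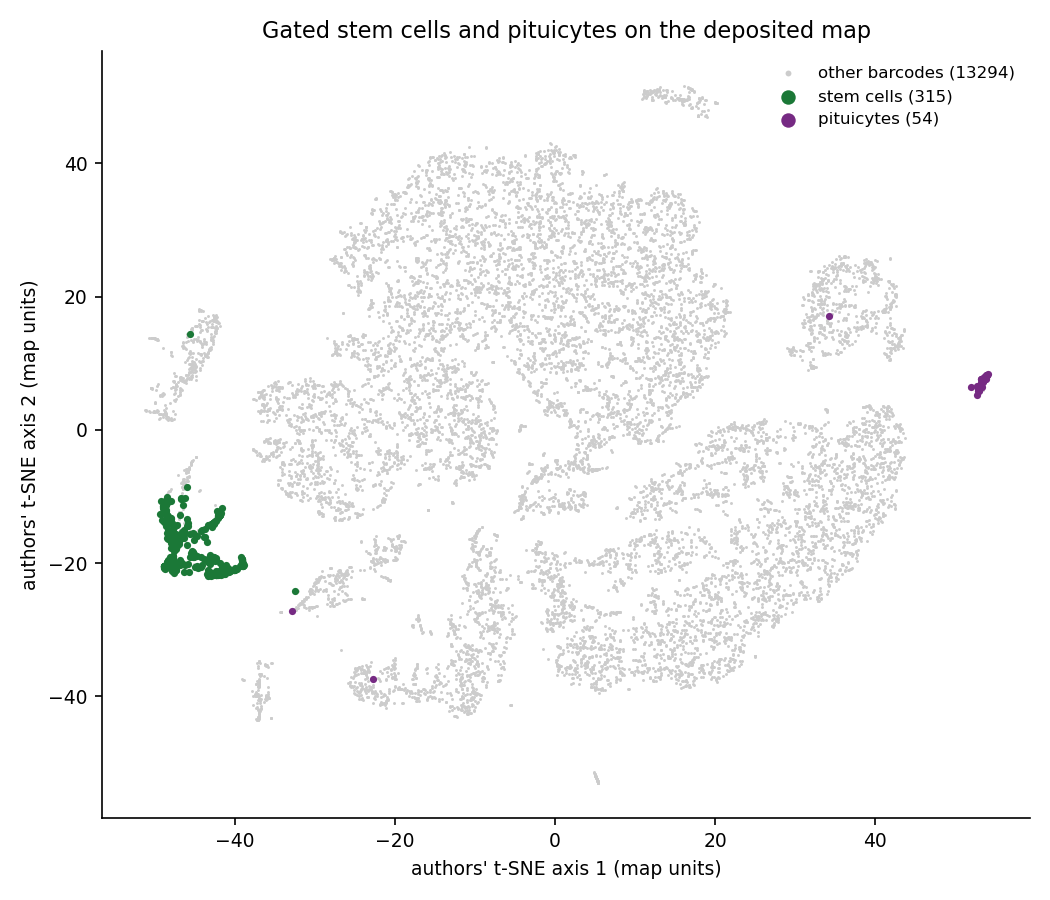
The authors' deposited t-SNE map, with 1 point a barcode and axes in map units without physical meaning. The 315 stem cells (green) and 54 pituicytes (purple) form separate patches among 13294 other barcodes (grey), centred at -46.4 and 53.3 on the first axis.

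Depth, quality and admixed RNA differed between the 2 cell types. Stem cells had a median of 9046 molecules and pituicytes of 5163.5, against 13438 in Gh-rich and 4329 in endothelial barcodes. The median mitochondrial share was 4.95% and 4.91% in stem cells and 10.9% and 10.5% in pituicytes, in libraries 1 and 2. Gonadotropin transcripts (Lhb plus Fshb) reached 1% of molecules in 26 stem cells and in 1 pituicyte. The summed gonadotrope markers made up 1.63% and 1.58% of the pooled molecules of stem cells, although the median stem cell had 0.033% in each library, and 2.41% and 0.118% of those of pituicytes. One library 1 pituicyte held 2167 of the 2197 Cga molecules of its group. Summed endothelial, fibroblast and macrophage markers stayed at or below 0.0215% in both cell types, against 1.32% or more in barcodes gated for those types. Across the whole series 54 barcode sequences occurred in both libraries, 6 of them in the 2 groups. What depth, mitochondrial share and admixed RNA contribute to the values below was not tested, other than by leaving barcodes out or thinning them where stated.

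Counts were summed per cell type and library and expressed as CPM (counts scaled to a fixed library total), so each value below is a pair, library 1 then library 2. All 9 barcode groups entered 1 fit: the 2 cell types, 4 hormone groups rich in Gh, Prl, Pomc or gonadotropins, and endothelial, fibroblast and mural, and macrophage groups. A gene was called at an adjusted p under 0.05 and a difference of at least 2-fold. The p-values measure how repeatable a difference was over the 2 pools, with a spread shared by the 9 groups. They do not measure variation between animals, and the gates had already chosen barcodes of different kinds. A single molecule was worth 6.69 and 4.85 CPM in pituicytes but 0.569 and 0.522 CPM in stem cells, so low genes were far harder to see in pituicytes.

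Of 12664 genes tested, 1216 (9.6%) were called higher in stem cells and 651 (5.14%) higher in pituicytes, 1867 (14.7%) in all. DESeq2 on the same counts turned that balance round, with 748 higher in stem cells and 864 higher in pituicytes, of which 737 and 632 were called by edgeR too. When every stem cell and pituicyte barcode was thinned to 1500 molecules, with the other groups at full depth, the counts were 554 and 200. The median log2 difference over all genes was 0.23 by edgeR and 0.04 by DESeq2, so each list below is read against those medians. The calls of each list are read against the 9.6% and 5.14% of all genes called higher in stem cells and in pituicytes. With genes at 0 in one cell type set to the floor of 3 molecules over that group, the median over all genes was 0.02. At 50 CPM or more in both libraries, 633 genes were called higher in stem cells, 49 of them without a single molecule in pituicytes, and 313 higher in pituicytes, 4 of them without one in stem cells.

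**Figure D2:**
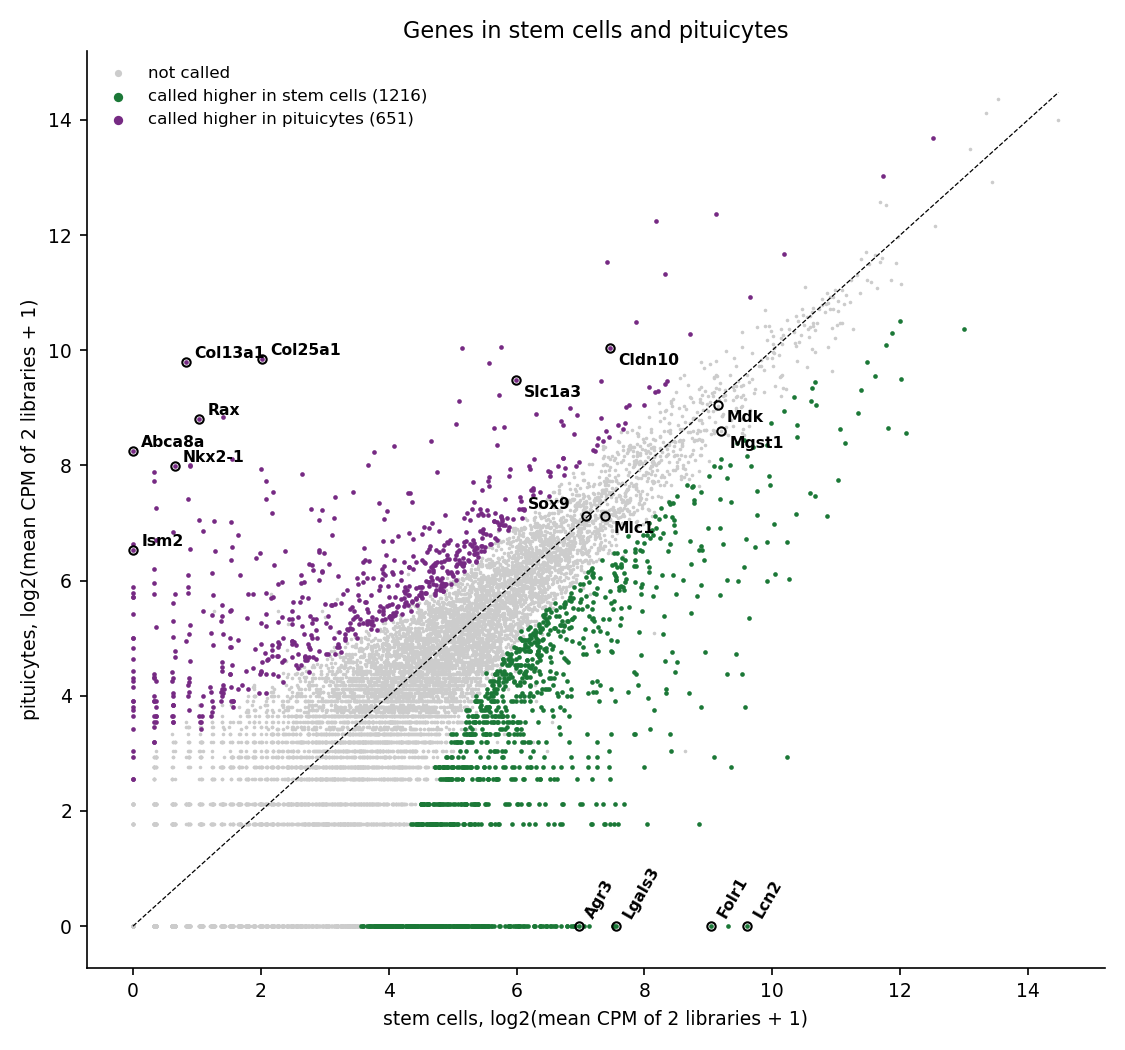
Each point is a gene, placed by its mean level over 2 libraries in stem cells (horizontal) and pituicytes (vertical), both as log2(CPM + 1), with the dashed line marking equal levels. Green points (1216) were called higher in stem cells and purple points (651) higher in pituicytes; Mlc1, Sox9 and Mdk lie near the line, and Lcn2 and Folr1 lie at 0 in pituicytes.

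All 12 leading genes of the stem cells had 0 molecules in pituicytes, so their folds are lower limits against 3 molecules over the group. Lcn2, which encodes the secreted siderophore-binding protein lipocalin 2, stood at 840.2 and 715 CPM in stem cells, at least 92.2-fold higher (edgeR quasi-likelihood test, Benjamini-Hochberg adjusted p = 9.1e-41). Cryab, the small heat shock protein alpha B-crystallin, stood at 708 and 559.8 CPM, at least 75.1-fold higher (edgeR adjusted p = 0.0012), and was no longer called after thinning (adjusted p = 0.06). Folr1, the folate receptor of epithelia, stood at 517 and 536 CPM, at least 62.4-fold higher (edgeR adjusted p = 2.9e-36). The hormone groups held 1.59 CPM of Lcn2 and 40.5 CPM of Cryab on average, so both genes marked stem cells against hormone cells as well.

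The other leading stem cell genes lay between about 100 and 200 CPM. Lgals3, the lectin galectin 3, stood at 175 and 201 CPM and at 396 CPM in macrophages. Aqp3, a water and glycerol channel, stood at 169.6 and 191 CPM and had no molecule in endothelial, fibroblast or macrophage barcodes. Ednrb, the endothelin B receptor, stood at 143 and 136 CPM and at 106 CPM in endothelial barcodes. These 3 were at least 22.3-, 21.4- and 16.5-fold higher than in pituicytes, and only Aqp3 was without molecules in all 3 other non-hormone groups. Tes, a focal adhesion protein, stood at 135 and 128 CPM, and Gpha2, a subunit of the glycoprotein hormone thyrostimulin, at 129.8 and 108 CPM. Agr3, a disulfide isomerase of secretory and ciliated epithelia, stood at 118 and 131 CPM, at least 14.8-fold higher (edgeR adjusted p = 2e-11). Pcp4l1 (129 and 110.2 CPM), the carboxylesterase Ces1d (123 and 112 CPM) and the cytochrome P450 Cyp2t4 (108 and 120.1 CPM) completed the set. Ces1d and Cyp2t4 belong to families of close copies, and the sources at hand do not say how shared reads were counted.

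Among the 12 leading genes of the pituicytes, Abca8a, a lipid transporter of the ABC family, stood at 308 and 301 CPM with 0 molecules in stem cells, at least 372-fold higher (edgeR adjusted p = 7.3e-37). Scube1, a secreted and membrane-bound EGF-repeat protein, stood at 114 and 82.5 CPM, at least 120.1-fold higher (edgeR adjusted p = 1e-13). Ism2, the secreted protein isthmin 2, stood at 80.2 and 102 CPM, at least 111-fold higher (edgeR adjusted p = 8.9e-16), but was not called by DESeq2 (adjusted p = 0.31). Abca8a and Scube1 also appeared in fibroblast and mural barcodes, at 118 and 158 CPM.

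Nkx2-4, a homeobox gene related to Nkx2-1, stood at 53.5 and 63.1 CPM in pituicytes and had 0 molecules in each of the other 8 groups, at least 71.4-fold above stem cells (edgeR adjusted p = 5.4e-11). Col13a1, a membrane-spanning collagen, stood at 862 and 908 CPM against 0 and 1.57 CPM in stem cells, a log2 difference, stem cells over pituicytes, of -10.03 ± 0.31 (SE) (edgeR adjusted p = 1.1e-58). Col25a1, a second membrane-spanning collagen, stood at 882 and 956 against 4.55 and 1.57 CPM (log2 difference -8.25 ± 0.27 (SE)). Col23a1, of the same collagen class, stood at 140.4 and 282 against 0 and 0.522 CPM. Col13a1 was also seen in endothelial (195 CPM) and fibroblast and mural barcodes (131 CPM). Tgfbi, a secreted adhesion protein, stood at 227 and 243 CPM against 0 and 0.522 CPM, and macrophages held 290.4 CPM.

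RefSeq promoters (build GRCm38.p6, the 250 bases before the start) were matched for 9 of the 12 leading stem cell genes, 11 of the 12 leading pituicyte genes and 10 of the 15 leading shared genes described further on. They were searched on both strands for ACAAAG or ACAATG, letters bound by SOX factors, because Sox2 and Sox9 were transcribed in these cells. Sox9 was seen in both cell types, and Sox2 in stem cells and in 18 pituicytes, where the rule limited its molecules. The letters occurred in 1, 4 and 3 of those promoters, beside 25.5% of all 27025 promoters of the table. An NKX2-1 type motif (CACTCAA or CACTTGA) and an AP-1 type motif (TGACTCA or TGAGTCA), of which TGACTCA shares the letters ACTCA with CACTCAA, occurred in 0 of these promoters, beside 5.22% and 4.43% of all. One example of each set is shown, with the SOX type letters in capitals as read on the gene's strand, 5′ to 3′. They are Agr3 (chr12:35925371-35925620, plus strand), Scube1 (chr15:83725040-83725289, minus strand) and the shared gene Cldn10 (chr14:118787621-118787870, plus strand, the first of 2 starts listed). A match of letters is a description and no evidence of binding.
Agr3: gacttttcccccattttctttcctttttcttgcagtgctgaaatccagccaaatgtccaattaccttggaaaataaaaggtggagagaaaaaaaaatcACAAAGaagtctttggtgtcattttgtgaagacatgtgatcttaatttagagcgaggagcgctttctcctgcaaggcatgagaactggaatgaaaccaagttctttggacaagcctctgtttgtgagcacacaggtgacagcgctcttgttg
Scube1: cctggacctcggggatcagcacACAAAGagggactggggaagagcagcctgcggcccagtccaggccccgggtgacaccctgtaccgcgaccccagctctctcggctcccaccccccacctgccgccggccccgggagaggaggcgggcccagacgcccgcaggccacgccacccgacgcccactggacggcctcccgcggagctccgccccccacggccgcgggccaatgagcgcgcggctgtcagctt
Cldn10: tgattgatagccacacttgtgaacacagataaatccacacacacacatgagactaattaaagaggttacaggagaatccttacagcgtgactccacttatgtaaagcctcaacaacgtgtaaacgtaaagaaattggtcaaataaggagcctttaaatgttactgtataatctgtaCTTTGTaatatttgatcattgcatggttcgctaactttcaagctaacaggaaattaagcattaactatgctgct

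Transcription factors of the pouch-derived lobes were called higher in stem cells for 10 of 14 tested (of 20 listed) and higher in pituicytes for 0. Their median log2 difference was 6.09, or 3.00 with genes at 0 molecules set to the floor. Lhx3, the LIM homeobox gene that the pouch needs to grow, stood at 213 and 196 CPM in stem cells and 6.69 and 0 CPM in pituicytes (log2 difference 6.16 ± 0.55 (SE), edgeR adjusted p = 2.5e-19). For Lhx3 both library sums of the stem cells were far above both library sums of the pituicytes. Eya1, a phosphatase and transcriptional coactivator, stood at 178 and 191 against 0 and 4.86 CPM, Isl1 at 117 and 112 against 13.4 and 0 CPM, and Pax6 at 112 and 107 CPM against 0 molecules. Pitx1 stood at 134 and 117 against 53.5 and 4.86 CPM, and 7 of the 8 pituicyte molecules of library 1 came from 1 barcode. The epithelial factors Elf3 and Klf5 and the homeobox gene Six4 were also called. Tcf7l1, Foxj1, Grhl2 and Hesx1 were not.

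Factors of the neural floor and of glia split 3 to 6. Of 16 tested (22 listed), 3 were called higher in stem cells and 6 higher in pituicytes, and the median log2 difference was 0.03 by edgeR, -0.63 by DESeq2 and -2.21 with genes at 0 set to the floor. Rax, a homeobox gene of eye and hypothalamus, stood at 415 and 476 CPM in pituicytes and 0 and 2.09 CPM in stem cells (log2 difference -8.64 ± 0.43 (SE), edgeR adjusted p = 5.6e-40). Nkx2-1, which the posterior lobe needs to form, stood at 261 and 248 against 1.14 and 0 CPM (-8.78 ± 0.57 (SE), edgeR adjusted p = 3.3e-29), but was not called by DESeq2 (adjusted p = 0.24). The T-box repressor gene Tbx3 stood at 187 and 272 against 6.83 and 3.66 CPM (-5.52 ± 0.39 (SE)). Each of these 3 was far above stem cells in both libraries. Lhx2, the LIM homeobox gene of the posterior lobe, stood at 100.3 and 107 against 0.569 and 0 CPM, Otx2 at 80.2 and 82.5 against 1.71 and 2.09 CPM, and Tbx2 at 53.5 and 53.4 against 0 and 0.522 CPM. Tbx3os1, which the annotation places antisense to Tbx3, stood at 187 and 117 against 0.569 and 0 CPM, and the sources at hand do not say whether the counting kept strands apart.

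Not every factor of the neural floor list was a pituicyte gene. Six6, a homeobox gene of hypothalamus and pouch alike, was higher in stem cells, 332 and 315 against 13.4 and 19.4 CPM (log2 difference 4.25 ± 0.31 (SE), edgeR adjusted p = 2.1e-25). Nfia, a gliogenic nuclear factor, was also higher in stem cells, 590.3 and 567 against 174 and 165 CPM (1.76 ± 0.18 (SE)), as was the orphan nuclear receptor Nr2f2, 70.0 and 71.0 against 6.69 and 4.86 CPM. Six3 stood at 366 and 363 CPM in stem cells and 267 and 267 CPM in pituicytes and Nfib at 314 and 389 against 341 and 345 CPM, neither called. In the Sox family, Sox4 (360.3 and 416 against 73.5 and 53.4 CPM) and Sox11 were called higher in stem cells among 10 tested (14 listed), with a median log2 difference of 1.24, or 0.02 with the floor and -0.08 by DESeq2, which called 1 gene higher and 1 lower and not Sox11 (adjusted p = 0.098).

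**Figure D3:**
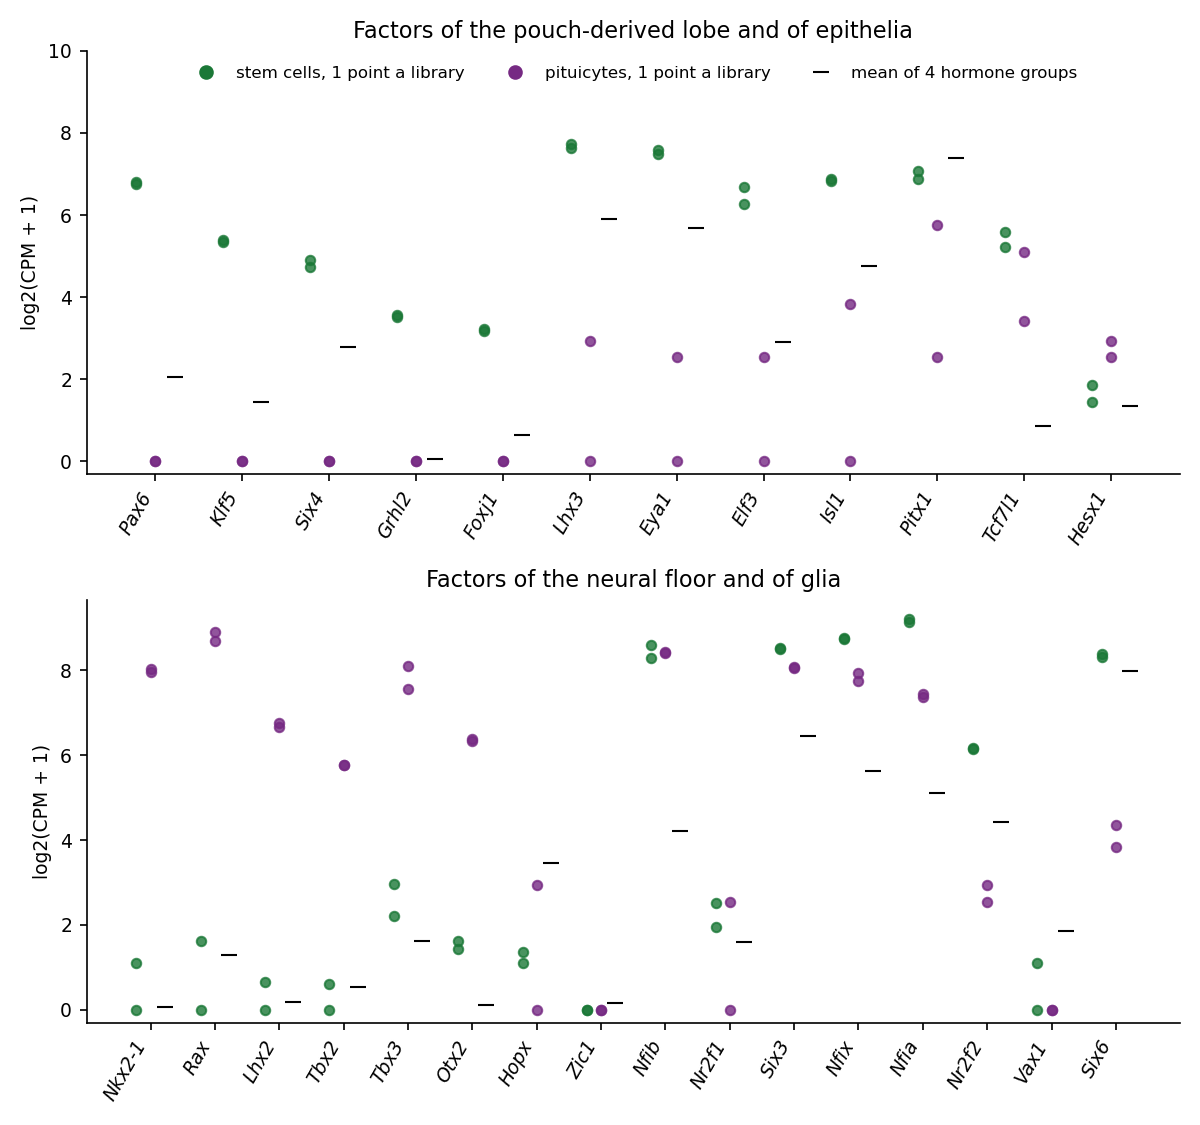
Level of 12 of the 14 pouch-type factors tested and of the 16 neural floor factors tested, as log2(CPM + 1), with 1 green point a library for stem cells, 1 purple point a library for pituicytes and a dash for the mean of the 4 hormone groups. Upper panel, 12 factors of the pouch-derived lobe and of epithelia; lower panel, the 16 factors of the neural floor and of glia, where Nkx2-1, Rax, Lhx2, Tbx2, Tbx3 and Otx2 are high in pituicytes and Six6, Nfia and Nr2f2 are higher in stem cells.

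Epithelial junction genes were called higher in stem cells for 24 of 32 tested (34 listed) and higher in pituicytes for 0. The median log2 difference was 5.62, or 1.88 with the floor for the 14 genes without pituicyte molecules. Krt18 and Krt8, the paired keratins of simple epithelia, differed alike. Krt18 stood at 1103 and 1298 CPM in stem cells and 13.4 and 0 CPM in pituicytes, and Krt8 at 463 and 456 against 0 and 4.86 CPM. Both have processed copies in the genome that may share reads. The epithelial adhesion gene Epcam stood at 1003 and 933 against 86.9 and 38.8 CPM (log2 difference 4.03 ± 0.18 (SE), edgeR adjusted p = 4.1e-35). Tight junction claudins followed, with Cldn3 at 378 and 309.7 against 13.4 and 38.8 CPM, Cldn9 at 236 and 191 against 26.7 and 4.86 CPM and Cldn7 at 198 and 172 against 6.69 and 0 CPM. The classical epithelial cadherin Cdh1 stood at 39.3 and 33.4 CPM against 0 molecules. The general junction gene F11r stood at 85.4 and 91.9 CPM in stem cells and 86.9 and 72.8 CPM in pituicytes, and Ocln and Tjp1 were also uncalled. DESeq2 called 20 of the 32 and the thinned counts 12 of 26.

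Adhesion genes of neural tissue were called 3 to 3 among 19 tested (24 listed), beside 9.6% and 5.14% of all genes. The median log2 difference was 0.09, or -0.87 with the floor and -0.18 by DESeq2. N-cadherin, Cdh2, stood at 408 and 461 CPM in pituicytes and 102 and 103 CPM in stem cells (log2 difference -2.09 ± 0.16 (SE)). Cdh19, a cadherin of glia and neural crest, stood at 40.1 and 43.7 CPM against 0 molecules in stem cells and was not called by DESeq2 (adjusted p = 0.39). Ncam1, the neural cell adhesion molecule, stood at 104 and 109.7 CPM in stem cells and 53.5 and 43.7 CPM in pituicytes (1.15 ± 0.32 (SE)).

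Astrocyte genes were called in both directions. Of 31 tested (40 listed), 13 were higher in pituicytes and 6 in stem cells, with a median log2 difference of -1.09, or -1.76 with the floor. Ptn, the growth factor pleiotrophin, stood at 4426 and 5321 CPM in pituicytes and 309 and 273 CPM in stem cells (log2 difference -4.07 ± 0.10 (SE), edgeR adjusted p = 5e-38). Apoe, the lipid carrier of glia, stood at 4847 and 5676 against 542 and 567 CPM (-3.24 ± 0.34 (SE), edgeR adjusted p = 0.00018). Slc1a3, the glial glutamate transporter, stood at 695 and 738 against 58.6 and 66.3 CPM (-3.52 ± 0.18 (SE)). Pituicytes were far above stem cells in both libraries for all 3. The metal-binding Mt3 stood at 508 and 689 against 58.6 and 45.4 CPM, the gap junction gene Gja1 at 301 and 500.1 against 43.8 and 54.3 CPM and the bicarbonate transporter Slc4a4 at 274 and 379 against 54.6 and 46.5 CPM.

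The astrocyte genes higher in stem cells numbered 6. Glul, the glutamine synthetase of astrocytes, stood at 1172 and 1271 CPM in stem cells and 60.2 and 68.0 CPM in pituicytes (log2 difference 4.25 ± 0.39 (SE), edgeR adjusted p = 4.6e-05). Aldoc, the brain form of aldolase, stood at 1359 and 1219.9 against 421 and 738 CPM (1.11 ± 0.16 (SE)). Aqp4, the astrocyte water channel, stood at 55.2 and 72.6 CPM against 0 molecules and was not called by DESeq2 (adjusted p = 0.6). The secreted chaperone Clu stood at 881 and 824 against 73.5 and 117 CPM, and Ndrg2 and Id3 were also higher. Per barcode, the astrocyte list took a median of 0.804% and 0.720% of the molecules of a stem cell and 1.99% or more of those of a pituicyte in both libraries, against 0.0617% and 0.0732% in Gh-rich barcodes.

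Matrix genes were called 9 to 5 towards pituicytes among 38 tested (41 listed), with a median log2 difference of 0.02 by edgeR, -0.44 by DESeq2 and -1.06 with the floor. Bcan, the brain proteoglycan brevican, stood at 481 and 432 CPM in pituicytes and 2.28 and 1.04 CPM in stem cells (log2 difference -8.09 ± 0.34 (SE)). Gpc3, a glypican, stood at 602 and 515 against 38.7 and 27.7 CPM (-4.07 ± 0.21 (SE)), and Sparc, a collagen-binding protein, at 374 and 442 against 63.2 and 47.0 CPM. On the stem cell side, Sdc4, a syndecan, stood at 667 and 645 against 174 and 155 CPM (2.00 ± 0.18 (SE)), Timp3, an inhibitor of matrix proteases, at 795 and 1231 against 301 and 553 CPM, and Thbs1 at 180.5 and 285 against 20.1 and 19.4 CPM. The basement membrane genes Col4a1 and Nid2 were higher in stem cells and Col4a5 in pituicytes.

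Notch pathway genes were called higher in stem cells for 6 of 21 tested (22 listed) and in pituicytes for 0, with a median log2 difference of 2.77, or 0.75 with the floor and 0.65 by DESeq2. The thinned counts gave 3 calls. Hey1, a transcriptional target of Notch, stood at 243 and 215 CPM in stem cells and 13.4 and 4.86 CPM in pituicytes (log2 difference 4.74 ± 0.45 (SE)). Hey2, a related target, stood at 71.2 and 74.7 against 13.4 and 0 CPM. The receptor gene Notch3 stood at 34.7 and 37.1 CPM against 0 molecules, and its call was lost on thinning (adjusted p = 0.23). The receptor Notch2, at 146 and 155 CPM in stem cells and 127 and 97.1 CPM in pituicytes, and the target Hes1, at 492 and 437 CPM in stem cells and 201 and 199 CPM in pituicytes (edgeR adjusted p = 0.3), were not called.

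Hippo pathway genes were called 4 to 2 among 19 tested (21 listed), beside 9.6% and 5.14% of all genes. The median log2 difference was 0.87, or 0.79 with the floor. DESeq2 called 2 on each side and the thinned counts 0 and 1. Cyr61 and Ctgf, both classical targets of the effectors YAP and TAZ, went opposite ways. Cyr61 stood at 828 and 718 CPM in stem cells and 20.1 and 189 CPM in pituicytes (log2 difference 2.75 ± 0.66 (SE), edgeR adjusted p = 0.02), a wide pair in pituicytes, and lost its call on thinning (adjusted p = 0.093). Ctgf stood at 114 and 72.8 CPM in pituicytes and 7.97 and 14.6 CPM in stem cells (-2.98 ± 0.44 (SE)). The effector gene Wwtr1, which encodes TAZ, was called higher in stem cells by edgeR and not by DESeq2 (adjusted p = 0.095), while Yap1 stood at 63.2 and 77.8 CPM in stem cells and 26.7 and 48.5 CPM in pituicytes and was not called.

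Retinoid genes were called in both directions, in numbers that moved with the settings. Of 16 tested (20 listed; median 0.19, or 0.15 with the floor), 3 genes were called on each side. The counts were 3 higher in stem cells and 1 higher in pituicytes without the library block, with only the 2 cell types fitted, and without barcodes holding markers of other cell types. DESeq2 gave 2 and 4, and the thinned counts 2 and 0. Aldh1a1, a retinoic acid synthase, stood at 150.3 and 108 CPM in stem cells and 6.69 and 0 CPM in pituicytes (log2 difference 5.47 ± 0.71 (SE)). Cyp26b1, which breaks retinoic acid down, was called higher in pituicytes on 4 molecules from 1 barcode of library 2. Hedgehog calls were few, near the background of 9.6% and 5.14% of all genes. The coreceptors Boc (42.1 and 37.6 CPM against 0 molecules) and Gas1 (98.5 and 104 against 53.5 and 19.4 CPM) were called higher in stem cells and 0 genes higher in pituicytes, of 10 tested (14 listed), and the median log2 difference of 2.36 turned to -0.37 with the floor.

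The Wnt list held 5 calls on each side of 23 tested (31 listed), with a median log2 difference of 0.87, which turned to -0.81 with the floor and -0.48 by DESeq2. DESeq2 called 4 and 5, and the thinned counts 2 and 3. Sfrp5, a secreted Wnt inhibitor, stood at 112 and 119 CPM in stem cells and 6.69 and 4.86 CPM in pituicytes (log2 difference 4.35 ± 0.62 (SE)). Its relative Sfrp2 stood at 73.5 and 68.0 CPM in pituicytes and 6.26 and 7.31 CPM in stem cells, and lost its call on thinning (adjusted p = 0.071). Receptors divided likewise, with Fzd7 at 49.0 and 46.5 CPM in stem cells against 0 molecules and Fzd5 at 86.9 and 184 CPM in pituicytes against 6.83 and 8.88 CPM (-4.15 ± 0.38 (SE)).

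Genes of BMP, FGF and TGF-beta signalling were called 6 to 2 towards stem cells among 34 tested (39 listed), beside 9.6% and 5.14% of all genes. The median log2 difference was 0.10, or 0.09 with the floor and -0.03 by DESeq2. The balance of 6 to 2 did not hold under DESeq2, with 4 higher in stem cells and 5 in pituicytes, or on thinning, with 1 and 2. Fgf10, a ligand made by the diencephalic floor during development, stood at 254 and 345 CPM in pituicytes and 10.8 and 14.6 CPM in stem cells (log2 difference -4.56 ± 0.32 (SE), edgeR adjusted p = 1.9e-26). Fgfr1, an FGF receptor gene, stood at 287 and 359 against 149.7 and 177 CPM, a difference just short of 2-fold. Id2, a BMP-responsive inhibitor of differentiation, stood at 159 and 168 CPM in stem cells and 0 and 4.86 CPM in pituicytes (5.85 ± 0.64 (SE)). The fibroblast growth factor antagonist Spry1 and the ligand Bmp7 were higher in stem cells too, and both lost their calls on thinning (adjusted p = 0.063 and 0.17).

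Transport genes were called higher in stem cells for 8 and in pituicytes for 7 of 26 tested (32 listed; median -0.03, or -0.50 with the floor), and on thinning for 7 and 3. Atp1b1, a sodium pump subunit, stood at 1912 and 1790.1 CPM in stem cells and 147 and 131 CPM in pituicytes (log2 difference 3.74 ± 0.15 (SE), edgeR adjusted p = 1.6e-48). The glial sodium pump subunit Atp1b2 of the astrocyte list went the other way, 107 and 87.4 CPM in pituicytes against 25.0 and 31.3 CPM in stem cells. Kcnk1, a background potassium channel, stood at 434 and 513 against 6.69 and 19.4 CPM in favour of stem cells. Slc6a6, the taurine transporter, stood at 435 and 509.8 CPM in pituicytes and 86.5 and 70.0 CPM in stem cells (-2.61 ± 0.17 (SE)). Slc12a2, the sodium, potassium and chloride cotransporter, stood at 154 and 214 against 15.4 and 23 CPM, and the calcium-gated chloride channel Ano1 at 100.3 and 131 against 2.28 and 0 CPM.

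Receptors for transmitters and peptides were sparse, with 25 of 43 tested (median 0.71, or -0.64 with the floor). Calls came to 3 higher in stem cells and 5 in pituicytes, beside 9.6% and 5.14% of all genes, and on thinning to 2 and 2. Ntrk2, the receptor of brain-derived neurotrophic factor, stood at 501 and 733 CPM in pituicytes and 290.3 and 279.9 CPM in stem cells (log2 difference -1.14 ± 0.15 (SE)). Lpar1, a lysophosphatidic acid receptor, stood at 93.6 and 72.8 against 4.55 and 1.04 CPM (-4.89 ± 0.58 (SE)). Ramp1, a partner of the calcitonin-type receptors, stood at 142 and 150.4 CPM in stem cells and 33.4 and 63.1 CPM in pituicytes. Receptors for vasopressin and oxytocin, Avpr1a and Oxtr, were too low to test.

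Oxidation enzymes were called 8 to 1 towards stem cells among 29 tested (34 listed; median 1.16, or 0.72 with the floor). Gstm1, a glutathione transferase with close copies, stood at 2786 and 2579 CPM in stem cells and 568 and 694 CPM in pituicytes (log2 difference 2.07 ± 0.16 (SE)). Hsd11b1, which regenerates active glucocorticoid, stood at 361 and 370.2 against 26.7 and 19.4 CPM (4.01 ± 0.31 (SE)). Maob, a monoamine oxidase of glia, was also a stem cell gene here, 136 and 148 against 0 and 4.86 CPM. The lipoxygenases Alox12e (103 and 85.6 CPM) and Alox15 (72.9 and 91.9 CPM), which are similar in sequence, had 0 molecules in pituicytes. Gpx8, a peroxidase of the endoplasmic reticulum, stood at 160.4 and 179.6 CPM in pituicytes and 45 and 65.8 CPM in stem cells.

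Antigen presentation and interferon genes were called higher in stem cells for 9 of 24 and in pituicytes for 1 (median 1.71, or 1.18 with the floor), by DESeq2 for 6 and 2 and on thinning for 5 and 0. The class I heavy chain genes H2-D1 and H2-K1 are close copies. H2-D1 stood at 1031 and 976 CPM in stem cells and 167 and 238 CPM in pituicytes, and H2-K1 at 892 and 846 against 127 and 248 CPM. Ifitm3, an antiviral membrane protein, stood at 2319 and 1938 against 321 and 476 CPM (log2 difference 2.38 ± 0.38 (SE)). B2m, the light chain that every class I molecule needs, stood at 1186 and 1006 CPM in stem cells and 882 and 1054 CPM in pituicytes and was not called.

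Immediate early and heat shock genes, which respond within minutes to stimulation and to tissue handling, were called higher in stem cells for 21 of 24 tested (25 listed) and in pituicytes for 0. The median log2 difference was 3.20, or 3.17 with the floor. Jun, a subunit of the AP-1 factor, stood at 1903 and 2282 CPM in stem cells and 160.4 and 267 CPM in pituicytes (log2 difference 3.32 ± 0.40 (SE), edgeR adjusted p = 0.00038). Fos, its partner, stood at 1623 and 1449 against 194 and 169.9 CPM (3.15 ± 0.37 (SE), edgeR adjusted p = 0.00036). Hspa1a, an inducible chaperone with a near-identical neighbour in Hspa1b, stood at 3597 and 3568 against 401 and 398 CPM (3.17 ± 0.29 (SE)). The hormone groups lay between, with means of 694 CPM of Jun, 881 CPM of Fos and 2682 CPM of Hspa1a. The transcription factor genes Atf3, at 759 and 834 against 60.2 and 19.4 CPM, Egr1, at 993 and 1105 against 40.1 and 97.1 CPM, and Nr4a1, at 648 and 607 against 20.1 and 19.4 CPM, and the growth inhibitor Btg2, at 1330.4 and 1328 against 107 and 175 CPM, followed the same order. Hspb1, a small heat shock gene, stood at 4209 and 4071 against 294 and 1151 CPM, and 112 of its 237 pituicyte molecules of library 2 came from 1 barcode. Against the hormone groups, 18 of the 24 were called higher in stem cells and 11 lower in pituicytes.

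Per barcode, the immediate early and heat shock list took a median of 1.33% and 1.70% of molecules in stem cells, with single barcodes from 0.0926% to 14.6%. In pituicytes the median was 0.193% and 0.20%, and the highest barcodes reached 1.17% and 3.68%. Macrophages, at 1.85% and 2.68%, and endothelial barcodes, at 1.12% in each library, lay near the stem cells, and Gh-rich barcodes, at 0.185% and 0.294%, near the pituicytes. All groups of a library went through the same 4 h digestion. How much of the difference between cell types arose there was not tested.

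**Figure D4:**
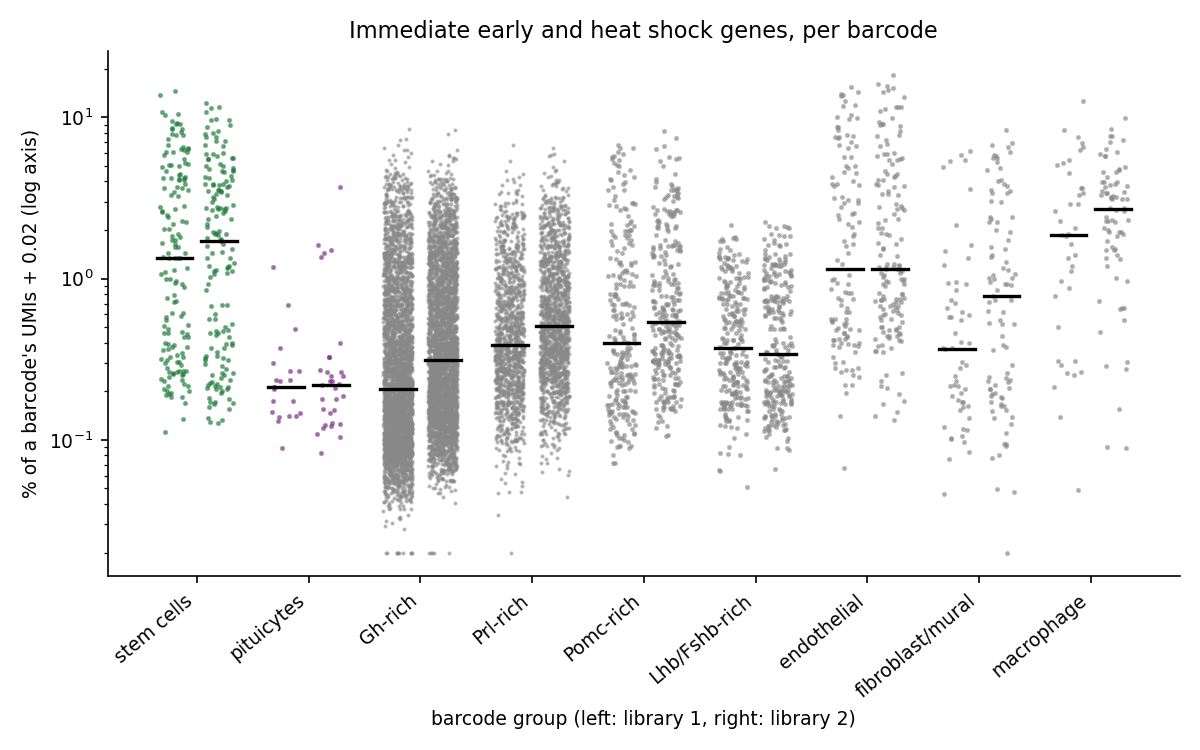
Share of each barcode's molecules in immediate early and heat shock genes, in percent with 0.02 added, on a log axis, for 9 barcode groups in 2 libraries; points are barcodes and bars are medians. Stem cells (medians 1.33 and 1.70) lie above pituicytes (0.193 and 0.20) in both libraries and near endothelial and macrophage barcodes.

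Secretory granule genes were called higher in stem cells for 9 of 28 and higher in pituicytes for 2, with a median log2 difference of 1.16, or 0.82 with the floor. The count in stem cells rose to 15 (median 2.77) without the barcodes lying apart on the map and to 13 (median 2.55) under stricter gates for both cell types, and was 5 by DESeq2 and 3 on thinning. Leaving out barcodes with markers of other cell types, gonadotropins included, gave 9 calls in stem cells and 2 in pituicytes (median 1.51). In that setting the log2 difference of the prohormone convertase gene Pcsk1 went from 1.78 ± 0.54 (SE) to -0.21. Rab3b, a granule-associated GTPase, stood at 46.1 and 66.3 against 20.1 and 4.86 CPM and Ptprn, a granule membrane protein, at 46.7 and 47.5 against 13.4 and 4.86 CPM. The granin Scg2 stood at 1124 and 1241 CPM in stem cells and 1143 and 141 CPM in pituicytes, and 168 of its 171 pituicyte molecules of library 1 came from the barcode rich in Cga. Against the hormone groups, where Scg2 averaged 4984 CPM, 19 of the 28 were called lower in both cell types.

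Cell cycle genes were called higher in pituicytes for 3 of 18 and in stem cells for 0, beside 5.14% and 9.6% of all genes. DESeq2 called 6 higher in pituicytes. Ccnd2, a cyclin of the G1 phase, stood at 261 and 393 CPM in pituicytes and 145 and 158 CPM in stem cells (log2 difference -1.14 ± 0.15 (SE)). Top2a, the DNA topoisomerase of dividing cells, stood at 80.2 and 0 against 2.85 and 5.22 CPM, with all 12 pituicyte molecules in 1 barcode of library 1. That barcode held 190 of the 267 cell cycle molecules of the library 1 pituicytes, and without the barcodes lying apart on the map the count of calls was 1 in each direction. Oxt, the oxytocin gene of the neurons whose terminals pituicytes surround, stood at 33.4 and 9.71 CPM in pituicytes and 1.14 and 2.09 CPM in stem cells (log2 difference -3.58 ± 0.99 (SE), edgeR adjusted p = 0.004). With 6.69 and 4.85 CPM a molecule in pituicytes, these are few molecules. Of 7 neuron markers tested (8 listed), only Oxt was called, and the median log2 difference was 0.20, or -0.31 with the floor. Without the barcodes lying apart on the map, 3 of the 7 were called higher in stem cells and 1 higher in pituicytes.

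The genes that stem cells and pituicytes shared were taken as those called higher than the hormone groups in both and at 50 CPM or more in both libraries of both. Against the mean of the 4 hormone groups, 2423 genes (19.1%) were called higher and 1403 (11.1%) lower in stem cells, and 1150 (9.08%) higher and 965 (7.62%) lower in pituicytes. At any level 706 genes (5.57%) were higher in both, and 146 (1.15%) met the level of 50 CPM. Both comparisons use the same hormone groups, so the count is a consequence of the rule and carries no test. Of the 146, 24 were called higher in stem cells than in pituicytes, 21 higher in pituicytes and 101 neither way. After thinning of stem cells and pituicytes, with the hormone groups at full depth, 96 genes met the same rule, 88 of them among the 146.

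Mlc1, a membrane protein of astrocyte endfeet, led the shared genes. It stood at 152 and 180.2 CPM in stem cells, 120.3 and 155 CPM in pituicytes and 0.129 and 0.327 CPM in the hormone groups, log2 differences from the hormone groups of 9.78 and 9.51. The cell types themselves differed by 0.26 ± 0.24 (SE) (edgeR adjusted p = 0.51). Sox9, the partner of SOX2 in progenitors and glia, stood at 157 and 114 CPM in stem cells, 147 and 131 CPM in pituicytes and 1.33 and 2.77 CPM in the hormone groups, with 6.40 and 6.44 on the log2 scale. The library sums of the cell types overlapped for Sox9 (-0.04 ± 0.28 (SE), edgeR adjusted p = 0.96). Mdk, the growth factor midkine, stood at 553 and 586 CPM in stem cells, 508 and 544 CPM in pituicytes and 12.4 and 12.3 CPM in the hormone groups, and fibroblast and mural barcodes held 862 CPM. Gstt3, a glutathione transferase, stood at 60.9 and 68.4 CPM in stem cells and 80.2 and 68.0 CPM in pituicytes, and Angptl4, a regulator of lipoprotein lipase, at 76.9 and 85.1 CPM in stem cells and 73.5 and 72.8 CPM in pituicytes.

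Other leading shared genes stood at unlike levels. Cldn10, a claudin of ion-selective epithelia, stood at 168 and 184 CPM in stem cells and 789 and 1311 CPM in pituicytes, a log2 difference of -2.58 ± 0.14 (SE) (edgeR adjusted p = 1.3e-35), and at 0.763 and 0.573 CPM in the hormone groups. Slc1a3 was likewise far higher in pituicytes, as above, yet stood 5.54 above the hormone groups in stem cells on the log2 scale. The sodium pump regulator Fxyd1, 172 and 134 against 341 and 369 CPM, and the matrix protein gene Prelp, 77.4 and 74.2 against 167 and 214 CPM, were higher in pituicytes. Fxyd1, Prelp, Angptl4 and Fstl1 were also at 371, 492, 315 and 386 CPM in fibroblast and mural barcodes, so they marked cells without a pituitary hormone more widely.

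The remaining leading shared genes were Pmp22, Fstl1, Pdpn, Mgst1 and Fgf1. Pdpn, the membrane mucin podoplanin, stood at 121 and 87.2 CPM in stem cells and 134 and 189 CPM in pituicytes (-0.70 ± 0.25 (SE), edgeR adjusted p = 0.034). Mgst1, a microsomal glutathione transferase, stood at 612 and 561 CPM in stem cells and 388 and 384 CPM in pituicytes (0.59 ± 0.15 (SE)). Neither difference reached 2-fold. Pmp22, a peripheral myelin protein, stood at 115 and 93.5 CPM in stem cells and 174 and 136 CPM in pituicytes, Fstl1, a secreted follistatin-like protein, at 145 and 149.9 CPM in stem cells and 227 and 179.6 CPM in pituicytes, and the growth factor Fgf1 at 83.1 and 63.2 CPM in stem cells and 60.2 and 112 CPM in pituicytes.

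**Figure D5:**
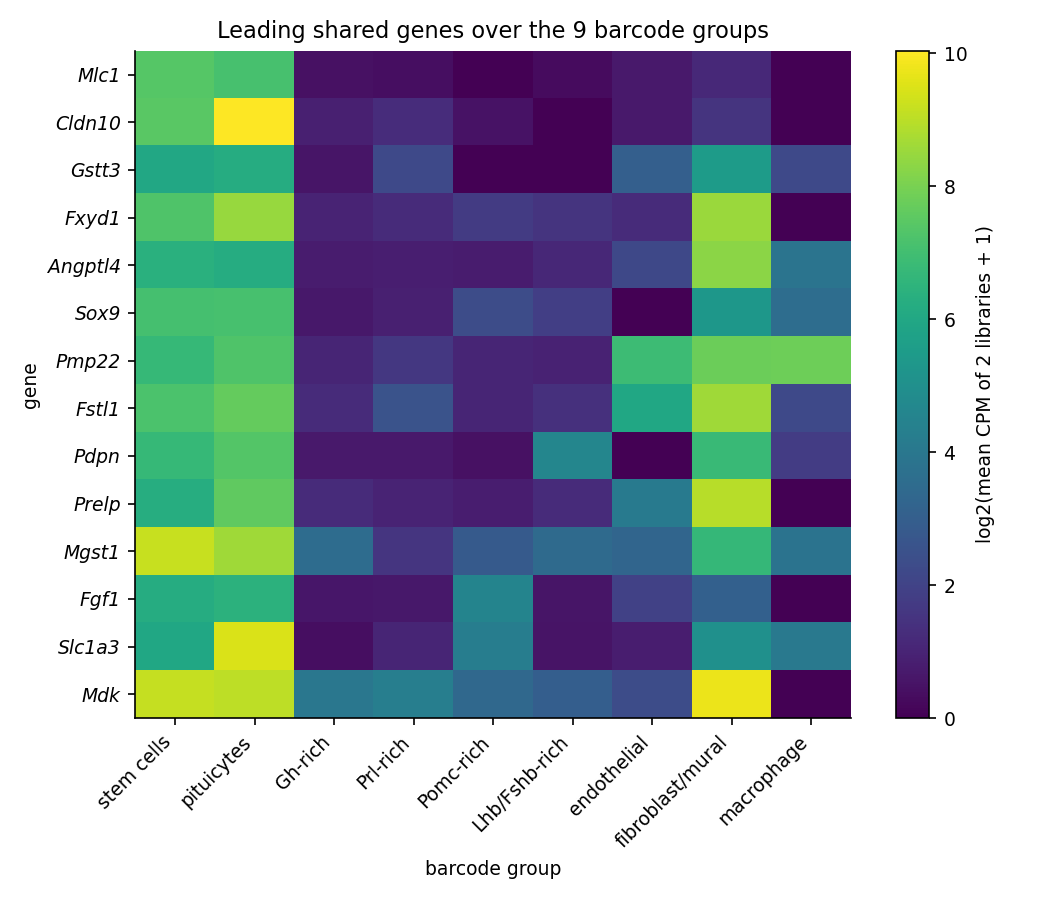
Mean level of 14 of the 15 leading shared genes, as log2(CPM + 1), in stem cells, pituicytes, the 4 hormone groups and 3 other non-hormone groups. The first 2 columns are high in every row, the hormone columns are low, and Mdk, Prelp, Fstl1, Fxyd1 and Angptl4 are also high in fibroblast and mural barcodes.

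Of the 146 shared genes, 77 were also called higher than the mean of endothelial, fibroblast and macrophage barcodes in both cell types, a call that 653 genes (5.16%) met in all. The 77 included Mia, a secreted cartilage protein, at 4308 and 4390.2 CPM in stem cells and 461 and 291 CPM in pituicytes (3.57 ± 0.11 (SE)). Igfbp5, a binding protein of insulin-like growth factors, stood at 3512 and 3508 CPM in stem cells and 909 and 1267 CPM in pituicytes. They also included the receptors Fgfr1, Notch2 and Ntrk2, the nuclear factor genes Nfia, Nfib and Nfix, and the homeobox gene Six3. The 5 shared genes with the smallest difference between the cell types were Gpm6b, Spr, Ext1, Dhrs1 and Mat2a. Gpm6b, a proteolipid of neural membranes, stood at 132 and 128 CPM in stem cells and 107 and 146 CPM in pituicytes, and Mat2a, which makes S-adenosylmethionine, at 255 and 249.6 CPM in stem cells and 247 and 267 CPM in pituicytes.

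By list, shared calls against the hormone groups came to 15 of 31 astrocyte genes and 15 of 38 matrix genes, beside 5.57% of all genes. Wnt genes gave 10 of 23, BMP, FGF and TGF-beta genes 13 of 34, Hippo genes 8 of 19, Notch genes 7 of 21 and oxidation enzymes 8 of 29. Neural floor factors gave 6 of 16 and hedgehog genes 4 of 10. Pouch factors gave 2 of 14, with 12 called higher in stem cells and 5 lower in pituicytes. Epithelial junction genes gave 3 of 32, with 23 higher in stem cells and 8 lower in pituicytes. The lists were chosen with earlier results of these data known, so the counts describe them and test nothing.

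Barcode shares at equal depth gave the same picture for single genes. After thinning each barcode to 1500 molecules, Sox9 was seen in 18.4% of stem cells and 25.9% of pituicytes, and Mlc1 in 24.8% and 20.4%. Neither gene was seen in the 273 thinned endothelial barcodes, which had a median depth of 4329 molecules before thinning. They served as background in place of the Gh-rich barcodes first planned, whose shares are not given here. At the thinned depth 0 of 273 allows up to 1.34% of barcodes with a molecule (exact 95% upper bound). This limits barcodes with a molecule and not cells that express the gene. Rax was seen in 0.318% of stem cells, 44.4% of pituicytes and 0.366% of endothelial barcodes, so its stem cell share lay at the background. Epcam was seen in 77.5%, 5.56% and 2.56% in the same order. Before thinning, Sox9 was seen in 61.9% and 63.0%, Mlc1 in 70.2% and 50.0%, Rax in 1.27% and 87.0%, and Epcam in 99.0% and 11.1% of stem cells and pituicytes, at their median depths of 9046 and 5163.5.

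Genes lower in both cell types than in the hormone groups numbered 430 (3.4%), of which 239 had 50 CPM or more in the hormone groups. Tmem59l, a membrane protein of neurons and endocrine cells, stood at 34.2 and 35.0 CPM in stem cells, 26.7 and 29.1 CPM in pituicytes and 333 and 355 CPM in the hormone groups (log2 differences -3.23 and -3.53). Calb1, a calcium buffer, stood at 6.26 and 3.13 CPM in stem cells and 112 and 118 CPM in the hormone groups, with 0 molecules in pituicytes. Eno3, the muscle form of enolase, stood at 3.98 and 5.74 CPM in stem cells, 6.69 and 4.86 CPM in pituicytes and 78.7 and 85.3 CPM in the hormone groups. The phosphatase gene Dusp26 stood at 14.8 and 12 CPM in stem cells, 26.7 and 4.86 CPM in pituicytes and 157 and 128 CPM in the hormone groups. All 3 genes given for both cell types were lower there than in the hormone groups in each library. The vesicle protein gene Caly followed at 14.2 and 13.1 CPM in stem cells, 6.69 and 9.71 CPM in pituicytes and 194 and 186 CPM in the hormone groups. The calcium-binding Necab2, the non-coding Dbpht2 and the sialyltransferase gene St8sia3 completed the 8. Pou1f1, the factor of the Gh, Prl and thyrotropin lineages, was low in both cell types, 8.54 and 8.36 CPM in stem cells and 6.69 and 9.71 CPM in pituicytes, against a hormone mean of 209.8 CPM.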

How the data were processed

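Single-cell RNA sequencing of 2 libraries, each from 3 pooled pituitary glands, was analysed from 1 deposited matrix of raw counts of unique molecular identifiers (molecules) per gene and barcode, listing 28693 genes, and from the authors' deposited t-SNE map coordinates, a map score with no unit. Cell Ranger, STAR and the mm10 genome were used upstream, per the submitters' processing notes; their versions, strand handling and the treatment of multiply mapped reads: not given in the sources used here. The barcode suffix was taken as the pool number. The members and gene lists were chosen with earlier results of these data known.

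Counts were summed per barcode group and library. Gh-rich barcodes had at least 30% Gh, Prl-rich 15% Prl, Pomc-rich 5% Pomc and gonadotropin-rich 1% Lhb plus Fshb; endothelial, fibroblast and mural, and macrophage barcodes had at least 4, 5 and 5 molecules of their markers. The 27 gate genes were left out before totals were taken, and 58 symbols occurring more than once were kept as separate rows. edgeR 4.0.16 (R 4.3.3; TMM scaling, default expression filter, robust quasi-likelihood fit) was run on 18 columns with library as a block, leaving 8 residual degrees of freedom, with Benjamini-Hochberg adjustment over 12664 genes. Groups of a library come from the same glands, which is why the block was kept; over 1795 genes the deviations of stem cells and pituicytes of the same library correlated at 0.07, and those of any 2 groups at -0.029 to 0.244. CPM were computed here with the TMM factors. On simulated data with 12311 genes, the comparison of stem cells with pituicytes recovered 35 of 100 genes changed 2-fold by the call used. It recovered 100 of 100 changed 4-fold, with 1 false call. These counts describe the simulated data and give no error rate for the real sums. In the real pituicyte sums, 1 barcode held all 12 Top2a molecules (library 1) and 1 all 4 Cyp26b1 molecules (library 2), and Cyp26b1 was called. Whether the simulated spread covers such barcodes was not tested.

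Genes named are the 12 highest and 12 lowest log2 differences among called genes with at least 50 CPM in both libraries of the higher side, predicted and gate genes left out. To these were added the 15 shared genes with the highest smaller difference from the hormone groups, the 8 lowest in both, the 5 most alike and up to 6 called genes per list and direction. Further genes named within a list, in the other directions or as uncalled, were chosen after their values were seen. A few genes that meet the rule are counted but not reported here. Doublets were limited only by the hormone limits and no caller was run; the labels give an expected multiplet rate of 7.6%. Alternatives were DESeq2 1.42.0, no filter, no library block, leaving out each library, only the 2 cell types in the fit, stricter gates and gate genes kept in totals. Others left out barcodes with markers of other types, the deepest barcodes or, chosen after seeing the data, those lying apart on the map. The last thinned the barcodes of the 2 cell types to 1500 molecules and kept the other groups at full depth. Other computing used numpy 2.4.6, scipy 1.17.1 and matplotlib 3.10.9.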

Additional observations from a re-analysis of the deposited data

Results flagged for a closer look

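Stem cells and pituicytes departed from the hormone groups in opposite directions in a set of genes. In each of them the difference between the 2 cell types was also called. The opposite calls of at least 2-fold all but fixed that in advance, so it adds no support. The order refers to the mean of the 4 hormone groups. Among the genes given here with group means, it did not hold in each group for Cd24a, Gpm6a and Ache. For Jun, Krt18, Lhx3 and Eya1 the order in each group is not given. The lowest and highest group means therefore follow each average. Calls in the same direction were more frequent, with 706 genes (5.57%) above the hormone groups in both cell types and 430 (3.4%) below them in both. In 45 of the 12664 genes tested, stem cells were called above and pituicytes below the hormone groups. Beside Jun, Krt18 and the pouch factors Lhx3 and Eya1 given above, these included Cd24a, a surface mucin of progenitors, at 718 and 586 CPM in stem cells, 6.69 and 4.86 CPM in pituicytes and 111 CPM on average in the hormone groups (5.79 to 278). Msx1, a homeobox repressor, stood at 544 and 540.0 CPM in stem cells, 13.4 and 0 CPM in pituicytes and 69.5 CPM on average in the hormone groups (51.8 to 90.4), and S100a11, a calcium-binding protein, at 769.6 and 644 CPM in stem cells, 66.9 and 58.3 CPM in pituicytes and 289 CPM on average in the hormone groups (218 to 346). In 30 of the 12664 genes the order was reversed. They included Mt3 and Bcan, given above, with hormone means of 208 CPM (69.5 to 358) and 10.3 CPM (7.86 to 14.1). Gpm6a, a neuronal membrane proteolipid, stood at 6.26 and 6.79 CPM in stem cells, 93.6 and 169.9 CPM in pituicytes and 42.0 CPM on average in the hormone groups (2.57 to 127). Ache, acetylcholinesterase, stood at 0.569 and 1.04 CPM in stem cells, 66.9 and 68.0 CPM in pituicytes and 15.2 CPM on average in the hormone groups (0.709 to 32.4), and the adaptor gene Ap1s2 at 9.68 and 6.27 CPM in stem cells, 114 and 233 CPM in pituicytes and 53.8 CPM on average in the hormone groups (18.0 to 108). The genes of this paragraph were picked by level after their values were seen, and both contrasts share the hormone groups.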

How the results depend on the processing

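The 6 counts of called and shared genes stayed within 1.5 times of their values under every alternative that gave a count, except under DESeq2 and thinning. Genes higher in stem cells numbered 1216 and fell to 748 under DESeq2 (737 in common). They fell to 554 when stem cell and pituicyte barcodes were thinned to 1500 molecules. Genes higher in pituicytes numbered 651 and came to 200 thinned, those of pituicytes above the hormone groups to 494 (1150 before), and shared genes to 96 (146 before). Thinning lowered the molecules in the sums of these 2 cell types, and fewer genes were then tested. With 315 stem cells and 54 pituicytes, the thinned sums of the 2 still differed in depth. The hormone groups kept their full depth, so the thinned comparisons with them set unlike depths side by side.

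Without the library as a replicate block, 1200 and 643 genes were called higher in stem cells and in pituicytes, 1184 and 635 of them also with the block, and the 146 shared genes were the same. Among genes named or listed, Cyp26b1, Pam and Rarres2 lost their calls without the block and Fgfr1 gained one. Leaving out either library left 1 column a group, so log2 differences were values with no test. Of 282 such gene values, 69 without library 1 and 73 without library 2 moved by more than the spread between libraries.

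Of 3325 alternative values for 282 gene results, 6 changed sign. Cyp26b1 went to 2.35 without library 2 (-3.93 without library 1), to 3.57 without barcodes holding markers of other cell types and to 5.84 thinned, since its pituicyte molecules came from 1 barcode. Top2a, likewise from 1 barcode, went to 4.45 without library 1 (-4.68 without library 2) and to 6.52 without barcodes apart on the map, and Pcsk1 went to -0.21 without barcodes holding markers of other cell types. Calls were lost for 103 values, 55 of them on thinning and 18 under DESeq2, Nkx2-1, Ism2 and Aqp4 included. Of the genes given with values above, Boc, Ntrk2, Prelp, Ptprn and Sparc also lost their calls on thinning.

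Depth limits the pituicytes, whose 54 barcodes held 122850 and 176571 molecules against 1667147 and 1796927 in stem cells. A gene absent from the pituicytes could stand at up to 8.44 CPM, against 0.817 CPM in stem cells, so folds against 0 are bounded far lower on one side than on the other. With 2 pools, agreement between animals could not be measured.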
